A study of Mus musculus with 6 samples.

Results

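The transcriptome of RAW264.7 cells given lipopolysaccharide (LPS) together with Sal-B was compared with that of cells given LPS alone. RAW264.7 is a mouse macrophage-like cell line. The comparison holds 4 of the 6 RNA sequencing libraries of the study, 2 from cells that received LPS at 10 ng/ml plus Sal-B at 50 μmol/L and 2 from cells that received the same LPS without Sal-B. The other 2 libraries come from control cells with neither agent and were used to sort genes by their response to LPS and to share the estimate of the spread. No group received Sal-B without LPS, and no treatment time was used. All groups are 1 cell line, and the replicates, numbered 2 and 3 in each group, are not said to be separate cultures, so that the p-values measure the spread between these libraries, which may be technical.

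Each gene's level is given in FPKM, the number of sequenced fragments scaled by transcript length and by library size. Of 10780 genes in the deposited table, 10014 reached 1 FPKM in at least 2 of the 6 libraries and were tested. Of these, 58 passed that filter only through the LPS libraries and 32 only through the libraries with Sal-B, so that they had to differ. Genes were sorted by the mean FPKM of the LPS libraries over that of the controls. A gene within 1.3-fold was called LPS-unmoved (2796 genes), one above was called LPS-raised (1661) and one below was called LPS-lowered (5556), while 1 gene was listed at 0 in all 4 of those libraries. These sizes depended on the scale. With the libraries scaled to the same median, 3309 genes were LPS-unmoved, 3067 LPS-raised and 3637 LPS-lowered. The class and the comparison share the LPS libraries, so that a gene whose LPS values happen to be low can appear both lowered by LPS and raised by Sal-B. Just inside the limits lay Cbwd1 at 1.2997 times control and Siah2 at 0.76926 times control. Just outside lay Nek6 at 1.3008 and Capn15 at 0.76923, so that genes on either side of a limit hardly differ in their response to LPS.

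LPS is a cell wall component of Gram-negative bacteria that macrophages sense through Toll-like receptor 4. The receptor signals through NF-kB, MAP kinases and interferon regulatory factors, which switch on cytokines, chemokines and interferon-stimulated genes while many genes of proliferation and housekeeping decline. Genes were separated by their response to LPS so that changes with Sal-B could be counted in each class. The classes do not separate inflammatory genes from others. Without a group given Sal-B alone, the counts do not show what Sal-B does by itself.

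The libraries summed to 309767 to 374371 FPKM, and read depth is unknown, since FPKM values hold no counts. The defining macrophage markers summed to 1563 and 1561 FPKM in the LPS libraries and to 726 and 739 FPKM in those with Sal-B, over the 9 of 10 listed markers in the table. Adgre1, Cd14, Cd68, Fcgr1, Lyz2 and Ptprc were called lower with Sal-B, and 1 entry of the integrin Itgam was called higher. The other Itgam entry did not pass the test (log2 fold change 0.07, adjusted p = 0.616, limma). It shares exon bases with the called entry, so that reads may be split between them. The transcription factor Spi1 (-0.35, adjusted p = 0.0971, limma) and the receptor Csf1r (-0.36, adjusted p = 0.0726, limma) did not pass either. With any 1 of the 4 treated libraries left out, the calls of Adgre1, Cd14, Fcgr1, Lyz2 and Ptprc were lost (highest adjusted p = 0.153, limma), and so was that of Itgam without LPS replicate 3, Sal-B replicate 2 or Sal-B replicate 3 (0.0723). Of the listed markers of other cell types, Lck, Pecam1 and Acp5 alone had a row, each under 3 FPKM in every library. In these bulk samples, fewer cells of a kind and less RNA per cell cannot be told apart.

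Sal-B was accompanied by lower levels of many more genes than higher ones, and this held among the genes that LPS had left alone. By limma on log2(FPKM + 1), 1054 genes (10.5%) were higher and 3184 (31.8%) were lower with Sal-B than with LPS alone at a Benjamini-Hochberg adjusted p under 0.05. The change was at least 2-fold on this scale for 224 of the higher and 592 of the lower genes. Among LPS-unmoved genes 338 (12.1%) were higher and 1006 (36.0%) lower. Among LPS-raised genes 173 (10.4%) were higher and 644 (38.8%) lower, and among LPS-lowered genes 542 (9.76%) were higher and 1534 (27.6%) lower. The shares called lower at any size thus ranged over little more than 10 percentage points between the classes. The shares called higher were nearly alike. Falls of at least 2-fold were found in 217 of 1661 LPS-raised, 183 of 2796 LPS-unmoved and 192 of 5556 LPS-lowered genes. Their share was thus largest among LPS-raised genes. Rises of that size were found in 36, 76 and 111 genes in the same order. The difference between the classes was not tested.

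The lean towards lower values depended on the scale. The median FPKM over 8050 genes detected in all libraries was 7.33 and 7.18 in the LPS libraries and 6.06 and 6.26 with Sal-B. It was 10.1 and 9.63 in the control libraries. The median log2 fold change with Sal-B against LPS over all genes tested was -0.22. Scaled to the same median, the median change was -0.06, and 1714 genes (17.1%) were higher and 2068 (20.7%) lower. Higher genes were 24.9% of the calls as deposited and 45.3% at the same median. The files do not show which scale is nearer to the amount of RNA per cell. A total of 1054 genes were called higher and 2066 lower on both scales. Between the LPS and the LPS plus Sal-B libraries, values did not overlap in 2491 genes (24.9%) that were higher and 5817 (58.1%) that were lower.

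Of the genes LPS-unmoved as deposited, 1390 were so at the same median too. Among them, 163 were higher and 338 lower with Sal-B on both scales, 34 and 37 of these by at least 2-fold. Both Sal-B libraries lay above both control libraries in 159 of the 163 genes, and below both in all 338 lower genes. The choice of genes nearly fixes this position, since LPS lay close to control in all of them and the call was made against LPS.

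Between the 2 libraries of a group, log2 values differed with a standard deviation over genes of 0.44 in the control pair, 0.27 in the LPS pair and 0.19 in the Sal-B pair. This spread is that of single genes, and it does not measure how sure the median change of -0.22 over all genes is. It was well under the changes of the genes named next. The adjusted p-values rest on 3 residual degrees of freedom. When the values of each treated pair were averaged and counted as 1 sample, 0 genes passed the adjusted threshold by limma (lowest adjusted p = 0.320), and 1477 had an unadjusted p under 0.05. Leaving out Sal-B replicate 2 gave 268 higher and 775 lower genes, and leaving out Sal-B replicate 3 gave 290 and 1007. Leaving out LPS replicate 2 gave 516 and 1350, and leaving out LPS replicate 3 gave 498 and 1476. Leaving out control replicate 2 or control replicate 3 gave 1691 higher genes each.

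**Figure D1:**
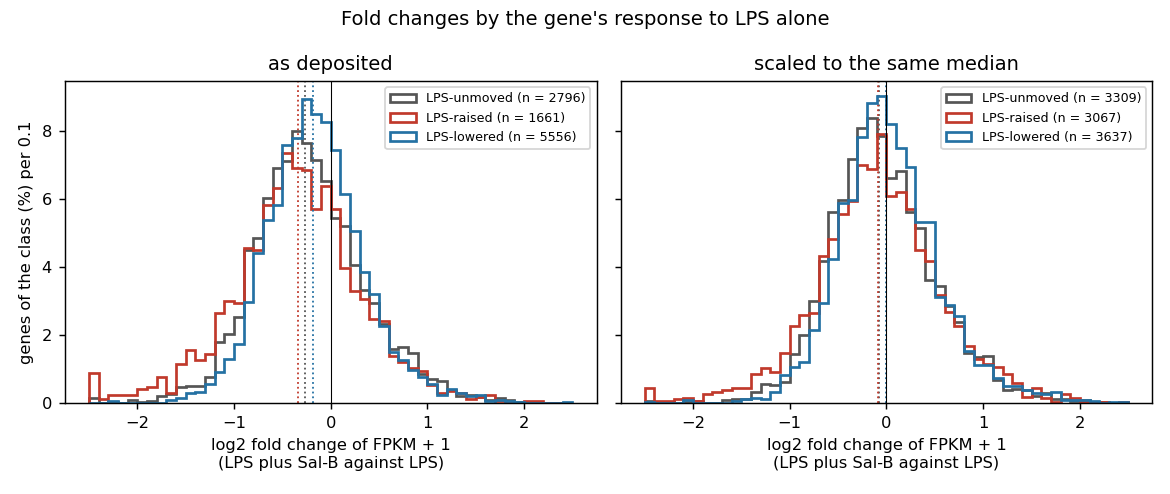
Distribution of the log2 fold change of FPKM + 1 with LPS plus Sal-B against LPS alone (x axis), as a percentage of the genes of each class (y axis), as deposited and scaled to the same median. Dotted lines mark class medians, values beyond 2.5 are drawn in the end bins, and all 3 classes lie left of 0 as deposited (medians -0.26, -0.34 and -0.18 for unmoved, raised and lowered genes).

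Among LPS-unmoved genes, the largest rise was that of Atr, the kinase of the replication stress checkpoint. It stood at 3.34 and 3.08 FPKM in control, 2.89 and 2.68 with LPS, and 13.7 and 13.1 where Sal-B was added (log2 fold change 1.93 ± 0.10 SE, adjusted p = 0.00103, limma). The Sal-B libraries lay above all 4 others, which were close together. The same form held for Nkap, which encodes an NF-kB activating protein of the nucleus, at 9.18 and 8.98, 9.09 and 8.31, and 34.1 and 33.9 FPKM in the same order (1.85 ± 0.09 SE). Ccz1, a subunit of the exchange factor that activates Rab7 on late endosomes, stood at 13.9 and 13.3, 11.8 and 11.8, and 43.9 and 42.7 FPKM (1.79 ± 0.08 SE).

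Rock1, a kinase that acts on the actin cytoskeleton, was, after Lyar, the named rise with the highest level in the Sal-B libraries, at 25.6 and 27.0 FPKM in control, 22.6 and 23.5 with LPS and 63.7 and 63.8 with Sal-B (1.43 ± 0.08 SE, adjusted p = 0.00118, limma). Lyar, a nucleolar factor of ribosome synthesis, reached 66.2 and 70.5 FPKM with Sal-B against 22.0 and 25.5 with LPS, but its controls differed widely, at 35.7 and 16.6 FPKM. With Sal-B replicate 2, Sal-B replicate 3, LPS replicate 2 or LPS replicate 3 left out, the call of Lyar was lost (highest adjusted p = 0.102, limma). That of Nktr, a cyclophilin-related protein at 6.50 and 6.84 FPKM with LPS and 19.6 and 19.8 with Sal-B, was lost without LPS replicate 2, Sal-B replicate 2 or Sal-B replicate 3 (highest adjusted p = 0.0555). The other named rises were Gm12666, Psme2b, Cuedc1, Rabl6, BC005561 and Ccdc34, with log2 fold changes of 1.45 to 1.84. Psme2b is a near copy of the proteasome activator gene Psme2 and shares exon bases with 9930111J21Rik1, so that its reads may be split between genes.

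Mob1a, an activator of the LATS kinases of the Hippo pathway, fell furthest among LPS-unmoved genes. Control cells held 18.3 and 15.7 FPKM, LPS-treated cells 14.6 and 14.9, and cells with Sal-B 1.57 and 1.74 (log2 fold change -2.57 ± 0.11 SE, adjusted p = 0.000843, limma). Alg12, a mannosyltransferase that builds the N-glycan precursor in the endoplasmic reticulum, stood at 10.4 and 8.35, 8.67 and 8.98, and 1.37 and 1.24 FPKM (-2.09 ± 0.13 SE). Slc31a1, the high-affinity copper importer, stood at 25.8 and 22.8, 19.6 and 20.2, and 5.43 and 5.34 FPKM (-1.71 ± 0.10 SE). In all 3 genes the Sal-B libraries lay below the other 4 with a wide gap.

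Dnajb9, a co-chaperone of BiP in the endoplasmic reticulum, was at 11.7 and 10.5 FPKM with LPS and 3.34 and 3.05 with Sal-B (-1.53 ± 0.10 SE, adjusted p = 0.00142, limma). Spcs1, a signal peptidase subunit, was at 49.9 and 27.9 FPKM with LPS and 11.3 and 11.8 with Sal-B, and its call was lost without Sal-B replicate 2 or Sal-B replicate 3 (highest adjusted p = 0.0616, limma). Lpxn, a focal adhesion adaptor of leukocytes, was at 40.7 and 41.0 FPKM with LPS and 13.1 and 13.2 with Sal-B. Pls3, an actin bundler, was at 22.9 and 25.1 FPKM and at 7.56 and 7.73. Cd300ld, a myeloid receptor of the CD300 family, Mad2l1bp, which silences the spindle checkpoint, and Insl6 fell by 1.502 to 1.85 on the log2 scale. Dhrs9, a retinol dehydrogenase, lost its call without LPS replicate 2, Sal-B replicate 2 or Sal-B replicate 3 (highest adjusted p = 0.0615), and A630033H20Rik without Sal-B replicate 2 (0.0554).

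**Figure D2:**
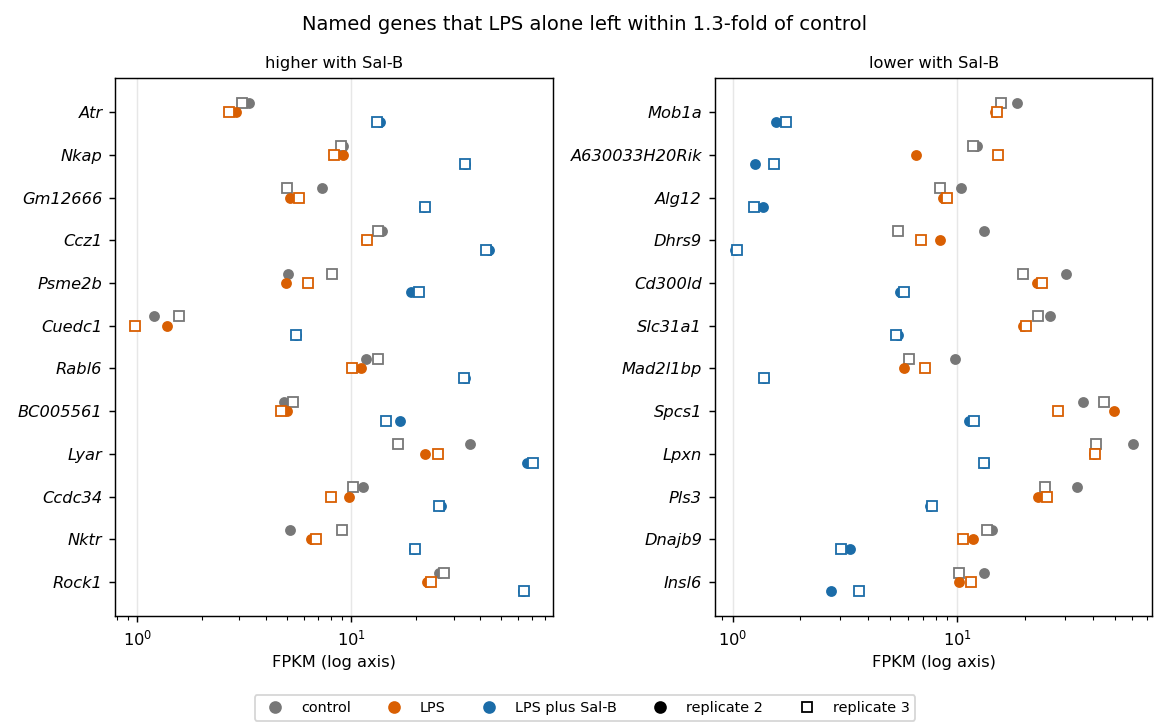
FPKM (log axis) in each library for the 12 LPS-unmoved genes with the largest rise and the 12 with the largest fall with Sal-B under the naming rule. The LPS plus Sal-B points stand apart on 1 side, as the naming rule requires, with Atr at 13.7 and 13.1 FPKM and Mob1a at 1.57 and 1.74 FPKM; replicates lie well apart in the control points of Lyar and Dhrs9 and the LPS points of A630033H20Rik and Spcs1, and elsewhere some cover each other.

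Gene lists were read against the shares over all genes tested, 10.5% higher and 31.8% lower as deposited, and 17.1% and 20.7% at the same median. For a reason given with the transcript properties at the end, the calls were also counted after each library's trend with GC content and transcript length had been taken off (the correction), and the shares over all genes were then 14.1% higher and 16.8% lower. The range given with 1 library left out has its low end where 1 of the treated libraries was left out and its high end where a control library was. No difference between a list and other genes, or between lists, was tested. Among secretory genes (translocation into the endoplasmic reticulum and COP-coated vesicles), 31 of 52 were lower and 1 higher, 20 of them among the 34 that LPS left unmoved. At the same median the counts were 20 lower and 4 higher, after the correction 15 and 4, and with 1 library left out 10 to 39 were lower. Of the 24 members that were LPS-unmoved at the same median, 12 were lower and 1 higher on that scale. The list's median log2 fold change as deposited was -0.51, against -0.22 over all genes. Ssr3, a subunit of the translocon-associated protein complex, was at 86.2 and 87.4 FPKM with LPS and 39.5 and 42.5 with Sal-B. Sec62, another translocation factor, was the 1 member that rose, from 44.7 and 46.0 to 83.6 and 85.2 FPKM.

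The promoters of this list were searched because Xbp1, which switches on secretory genes under endoplasmic reticulum stress, was itself among the largest falls. Xbp1 was at 52.2 and 67.1 FPKM in control, 22.3 and 23.0 with LPS and 2.06 and 2.93 with Sal-B. It was thus lower with LPS alone too, while the list's median log2 change with LPS against control was 0.03. A part of Xbp1 in the levels of these genes was not tested. The letters GACGTGG, the core of an XBP1 site, on either strand were present in 10 of 42 promoters of the list (23.8%) and in 3.75% of the 8079 promoters of genes tested. A promoter here runs from 250 bases before the RefSeq gene start to 50 after it. Of the 10 genes with the letters, 8 were lower and 0 higher with Sal-B as deposited, and 4 were lower at the same median. Of the 32 without them, 18 were lower and 1 higher as deposited, and 11 were lower at the same median. The difference between members with and without the letters was not tested, and a match describes the letters, not binding. The 4 members with the letters that were lower on both scales are shown from RefSeq (GRCm38.p6), 5′ to 3′ on the gene's strand with the matched letters in capitals. Copb1 and Copb2, which encode coats of Golgi vesicles (chr7:114254631-114254930, minus strand, and chr9:98563481-98563780, plus strand), and Sec24d and Sec13, which encode coats of vesicles leaving the endoplasmic reticulum (chr3:123267246-123267545, plus strand, and chr6:113740632-113740931, minus strand), read:
Copb1: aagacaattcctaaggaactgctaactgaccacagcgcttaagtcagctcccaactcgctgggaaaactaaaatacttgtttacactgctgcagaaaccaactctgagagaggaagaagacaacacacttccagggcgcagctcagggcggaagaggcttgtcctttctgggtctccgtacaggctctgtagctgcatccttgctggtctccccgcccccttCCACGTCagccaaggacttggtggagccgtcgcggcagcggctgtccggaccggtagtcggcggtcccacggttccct
Copb2: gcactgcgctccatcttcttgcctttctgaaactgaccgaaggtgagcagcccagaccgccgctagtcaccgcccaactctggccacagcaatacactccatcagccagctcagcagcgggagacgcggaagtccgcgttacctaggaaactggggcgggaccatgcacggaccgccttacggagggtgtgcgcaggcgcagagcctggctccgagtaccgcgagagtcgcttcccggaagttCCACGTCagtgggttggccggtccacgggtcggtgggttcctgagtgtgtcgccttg
Sec24d: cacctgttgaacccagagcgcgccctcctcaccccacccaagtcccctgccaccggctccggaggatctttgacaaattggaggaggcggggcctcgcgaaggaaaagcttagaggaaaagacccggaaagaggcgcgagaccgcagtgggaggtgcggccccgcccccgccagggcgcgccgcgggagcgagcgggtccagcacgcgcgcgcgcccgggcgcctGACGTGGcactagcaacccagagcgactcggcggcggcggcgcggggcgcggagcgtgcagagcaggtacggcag
Sec13: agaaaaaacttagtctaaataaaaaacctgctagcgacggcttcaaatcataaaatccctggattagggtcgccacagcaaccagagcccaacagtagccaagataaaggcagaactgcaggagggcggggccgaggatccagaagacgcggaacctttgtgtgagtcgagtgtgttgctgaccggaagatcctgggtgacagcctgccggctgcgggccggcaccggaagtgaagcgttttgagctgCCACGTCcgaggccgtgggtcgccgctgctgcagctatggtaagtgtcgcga

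The capitals lay within 28 bases before the start in Copb1, Copb2 and Sec24d and spanned the start in Sec13. Copb2 was at 25.8 and 25.1 FPKM with LPS and 13.4 and 13.9 with Sal-B (log2 fold change -0.86, adjusted p = 0.00237, limma). Copb1 was at 32.1 and 33.4 FPKM and at 17.8 and 17.97 (-0.84, adjusted p = 0.00423). Sec24d was at 5.84 and 5.31 FPKM and at 2.62 and 2.81 (-0.82, adjusted p = 0.00348). Sec13 was at 13.6 and 14.1 FPKM and at 8.06 and 8.25 (-0.70, adjusted p = 0.0153), and it was not called after the GC and length correction (adjusted p = 0.0666) nor with any 1 treated library left out (highest adjusted p = 0.0993).

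Mitochondrial proteins encoded in the nucleus were lower in larger shares than all genes. Of 72 nuclear respiratory chain genes, 54 (75%) were lower and 1 higher, and 28 of the 35 that LPS left unmoved were lower. At the same median 34 were lower and 1 higher, after the correction 22 and 3, and with 1 library left out 14 to 61 were lower. Of the 23 members that were LPS-unmoved at the same median, 13 were lower and 1 higher on that scale. Ndufs4, a complex I subunit, was at 34.2 and 34.2 FPKM with LPS and 14.7 and 15.0 with Sal-B. Of 77 mitochondrial ribosomal protein genes, 47 were lower and 1 higher, then 29 and 3 at the same median and 22 and 5 after the correction, and 12 to 56 were lower with 1 library left out. Mrpl50 was at 27.4 and 27.7 FPKM with LPS and 9.78 and 10.9 with Sal-B. Of 26 citrate cycle genes, 17 were lower and 2 higher, then 11 and 3, then 7 and 3, and 5 to 22 were lower with 1 library left out.

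Transcripts of the mitochondrial genome went the other way. Of 13, 8 were higher and 0 lower, and at the same median and after the correction 10 were higher and 0 lower. With any 1 of the treated libraries left out, 2 of the 13 were called higher and 0 lower, and with either control library left out 10 and 2. LPS had lowered 9 of them and left 4 unmoved, and the median log2 change from control was -1.42. mt-Nd3 was at 1756 and 1688 FPKM in control, 122 and 129 with LPS and 215 and 212 with Sal-B, so that it rose and stayed far under control. Whether libraries were made by poly(A) selection or by rRNA removal is not stated for each library, and its part in levels of mitochondrial transcripts was not tested.

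Lysosomal genes were lower in 29 of 49 cases, with 0 higher, 21 and 1 at the same median and 20 and 0 after the correction, and 13 to 39 were lower with 1 library left out. Lamp2, a lysosomal membrane protein, was at 47.4 and 46.4 FPKM with LPS and 23.0 and 23.7 with Sal-B. Of 46 proteasome subunits 24 were lower and 3 higher, then 14 and 5, then 13 and 5, and 4 to 33 were lower with 1 library left out. Of 80 cytosolic ribosomal protein genes 33 were lower and 1 higher, but 5 and 3 at the same median and 1 and 4 after the correction, so that their share of lower calls was above that of all genes on the deposited scale alone. With 1 library left out, 1 to 63 of them were lower.

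Chromatin-modifying enzymes were the largest list that leaned towards higher values. Of 89, 21 were higher and 7 lower, against 10.5% and 31.8% over all genes. Among the 26 that LPS left unmoved, 10 were higher and 2 lower. At the same median 37 were higher and 6 lower, after the correction 21 and 6, and with 1 library left out 8 to 36 were higher and 1 to 19 lower. Of the 40 members that were LPS-unmoved at the same median, 15 were higher and 4 lower on that scale. Kdm5a, a demethylase of histone H3, was at 7.36 and 6.54 FPKM with LPS and 18.1 and 18.3 with Sal-B. The deacetylase Hdac2 fell from 19.98 and 18.4 to 8.13 and 8.6001 FPKM.

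Of 27 glycolytic and hypoxia genes 8 were higher and 5 lower, then 12 and 3 at the same median and 10 and 3 after the correction, and 3 to 13 were higher with 1 library left out. Hk1, a hexokinase, rose from 20.2 and 19.4 to 39.7 and 41.2 FPKM, and Hk2 from 12.1 and 11.6 to 20.3 and 20.6. Hif1a, the oxygen-regulated transcription factor, was at 46.6 and 46.7 with LPS and 27.3 and 27.5 with Sal-B. Pgk1, a glycolytic enzyme, fell from 403 and 414 to 211 and 223 FPKM, but it was not called after the correction (adjusted p = 0.0734, limma). Of 26 sterol synthesis genes 5 were higher and 2 lower, then 8 and 1, then 7 and 1, and 0 to 9 were higher with 1 library left out. Srebf2, the main activator of that pathway, was at 27.5 and 25.3 FPKM with LPS and 42.8 and 44.5 with Sal-B. The call of Hif1a was lost without Sal-B replicate 2 (adjusted p = 0.0548, limma), and that of Srebf2 without either Sal-B library (highest adjusted p = 0.0575). Splicing factors were close to the shares over all genes, with 9 higher and 26 lower of 69 as deposited and 14 and 13 at the same median, and 15 and 9 after the correction. Translation initiation factors were 7 higher and 23 lower of 51, then 10 and 15, then 9 and 9, and 7 to 32 were lower with 1 library left out. Eif4a2, an RNA helicase, was at 32.3 and 35.8 FPKM with LPS and 10.4 and 11.2 with Sal-B.

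**Figure D3:**
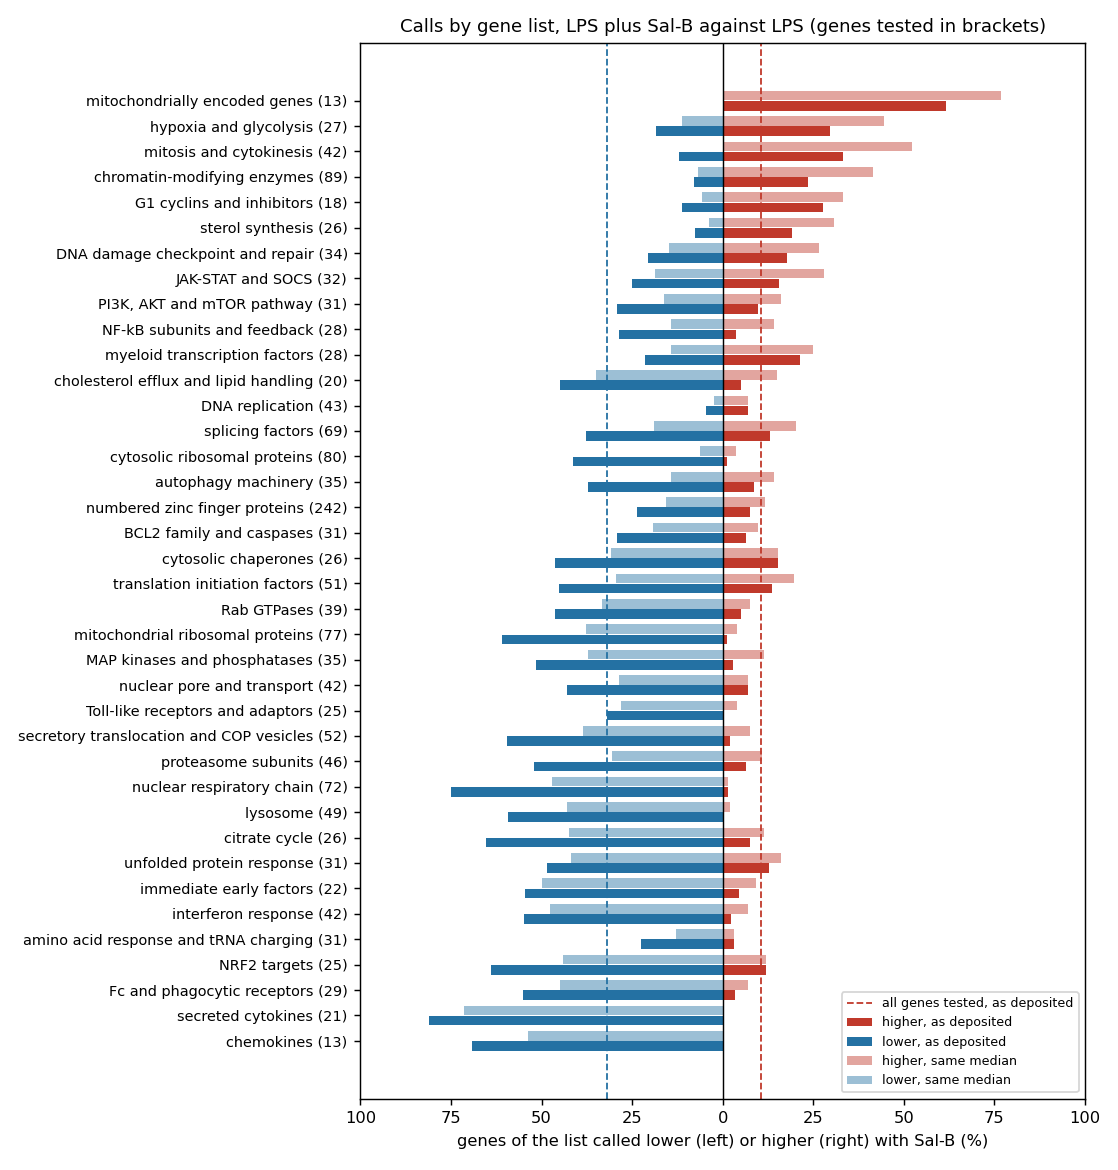
Percentage of the tested genes of each list reported here called lower (left) or higher (right) with LPS plus Sal-B against LPS, as deposited (solid bars) and at the same median (pale bars). Dashed lines mark the shares over all genes tested as deposited, 31.8% lower and 10.5% higher, and mitochondrially encoded genes stand at the top with chemokines and cytokines at the foot.

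Secreted cytokines were lower in most cases. Of 21, of which LPS had raised 20, 17 were lower and 0 higher, then 15 and 0 at the same median and 12 and 1 after the correction, and 8 to 19 were lower with 1 library left out. LPS had raised all 13 chemokines, of which 9 were lower and 0 higher, then 7 and 0 at the same median and 4 and 0 after the correction, and 4 to 13 were lower with 1 library left out. Il1f6, an interleukin-36 cytokine, was listed at 0 in both controls and was at 14.4 and 17.3 FPKM with LPS and 1.13 and 1.31 with Sal-B. The 6 LPS-raised genes named for the largest falls were Ccl2, Gm38394, Ccl7, Evi2, Il1a and Il1f6, with log2 fold changes of -4.26 to -2.92. Evi2 shares exons with Evi2a and Evi2b. Evi2b was also lower, at 183 and 170 FPKM with LPS and 44.8 and 44.8 with Sal-B, and Evi2a did not pass the test (0.17, adjusted p = 0.741, limma).

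Interferon response genes were lower in 23 of 42 cases and higher in 1, with 20 and 3 at the same median and 15 and 3 after the correction, and 10 to 31 were lower with 1 library left out. The guanylate-binding proteins Gbp2 and Gbp3, antimicrobial GTPases, fell furthest. Gbp2 was at 0.0452 and 0.0596 FPKM in control, 6.97 and 6.23 with LPS and 0.891 and 1.06 with Sal-B (log2 fold change -1.94 ± 0.11 SE, adjusted p = 0.00113, limma). Gbp3 was at 0.112 and 0.0456, 3.36 and 3.90, and 0.195 and 0.233 FPKM (-1.93 ± 0.11 SE). Dhx58, a sensor of viral RNA, was the 1 member called higher (0.51 ± 0.16 SE, adjusted p = 0.049, limma), and its call was lost with any 1 treated library left out (highest adjusted p = 0.207).

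Promoters of Gbp2 (chr3:142620413-142620712, plus strand) and Gbp3 (chr3:142559794-142560093, plus strand) are shown because both hold the interferon response element letters GAAANNGAA close to the start. Over all promoters of genes tested, 7.36% hold these letters on either strand. Promoters were found for 76.2% of the interferon list, so that a share over the whole list is not given. Of the 19 members found to hold the letters, 12 were lower and 0 higher as deposited, and 9 and 1 at the same median. Of the 13 found without them, 6 were lower and 0 higher as deposited, and 6 were lower at the same median. The difference was not tested. In the RefSeq sequences (GRCm38.p6) the matches, all on the opposite strand, are in capitals, and in Gbp3 a pair of matches overlaps by 3 bases:
Gbp2: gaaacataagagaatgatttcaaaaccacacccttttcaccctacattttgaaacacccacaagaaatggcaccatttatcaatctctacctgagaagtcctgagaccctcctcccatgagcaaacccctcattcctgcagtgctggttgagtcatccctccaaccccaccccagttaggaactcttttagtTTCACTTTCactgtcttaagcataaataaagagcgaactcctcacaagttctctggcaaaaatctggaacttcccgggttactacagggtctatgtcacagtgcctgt
Gbp3: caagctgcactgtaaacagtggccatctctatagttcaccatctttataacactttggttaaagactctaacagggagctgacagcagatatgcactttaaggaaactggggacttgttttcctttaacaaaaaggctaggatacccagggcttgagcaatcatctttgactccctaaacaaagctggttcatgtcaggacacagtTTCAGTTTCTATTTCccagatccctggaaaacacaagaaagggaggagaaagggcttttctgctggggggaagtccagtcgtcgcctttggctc

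Of 28 NF-kB subunits and feedback genes 8 were lower and 1 higher as deposited, a share of lower calls near that of all genes. At the same median 4 were lower and 4 higher, and after the correction 6 and 1. Nfkbia, the inhibitor IkB alpha, was at 79.3 and 51.5 FPKM in control, 375 and 366 with LPS and 911 and 899 with Sal-B (log2 fold change 1.29 ± 0.20 SE, adjusted p = 0.0063, limma), and its call was lost without Sal-B replicate 2 (adjusted p = 0.0547). Zfp36, tristetraprolin, which speeds the decay of cytokine mRNAs, fell from 72.4 and 78.5 to 16.8 and 18.1 FPKM (-2.05 ± 0.18 SE). In control cells it stood at 14.2 and 20.8 FPKM.

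The 6 LPS-raised genes named for the largest rises were Ccnd3, Gipr, Luzp1, Fam133b, Il4i1 and Mafg. In Luzp1 and Il4i1, 1 LPS library lay between the controls, so that their place in the class rests on the other. Luzp1 was at 3.93 and 5.94 FPKM in control, 4.96 and 9.62 with LPS and 25.5 and 25.8 with Sal-B. Il4i1 was at 0.785 and 1.01, 2.13 and 0.932, and 6.68 and 6.53 FPKM. Ccnd3, cyclin D3, was at 1.01 and 1.03 FPKM in control, 1.91 and 1.93 with LPS and 11.8 and 12.3 with Sal-B, and its neighbour on the opposite strand, Bysl, fell from 7.54 and 7.55 to 2.83 and 3.01. The call of Bysl was lost with any 1 treated library left out (highest adjusted p = 0.0832, limma). Fam133b was at 13.6 and 14.6 FPKM with LPS and 46.6 and 48.5 with Sal-B. Mafg, a small MAF partner of NRF2, was at 14.5 and 14.1 and at 45.8 and 46.2 FPKM. Il4i1, an amino acid oxidase, shares exons with Nup62, and Mafg with Sirt7, so that reads of either may be split. Luzp1 lost its call without Sal-B replicate 2 or Sal-B replicate 3 (highest adjusted p = 0.0618, limma). Of 18 G1 cyclins and inhibitors 5 were higher and 2 lower, then 6 and 1 both at the same median and after the correction, and 2 to 6 were higher with 1 library left out, with Ccnd2 at 2.06 and 1.83 FPKM with LPS and 6.46 and 6.05 with Sal-B.

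NRF2 targets, the antioxidant genes, were lower in 16 of 25 cases and higher in 3, with 11 and 3 both at the same median and after the correction, and 8 to 21 were lower with 1 library left out. The antioxidant response element letters TGACNNNGC were present in 8 of 21 promoters of the list (38.1%) and in 14.9% of all promoters of genes tested. Of the 8, 5 were lower and 2 higher, and of the 13 without the letters 9 were lower and 1 higher. At the same median 4 of the 8 and 6 of the 13 were lower. The difference was not tested. Slc7a11, the cystine importer, belongs both to this list and to that of the amino acid response, and LPS did not move it. Its level was 4.50 and 4.05 FPKM in control, 4.12 and 4.18 with LPS and 0.399 and 0.453 with Sal-B (log2 fold change -1.85 ± 0.10 SE, adjusted p = 0.00112, limma).

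Pycr1, which makes proline, went the other way. It was at 11.98 and 10.2 FPKM in control, 0.848 and 0.627 with LPS and 4.08 and 3.72 with Sal-B (1.498 ± 0.13 SE, adjusted p = 0.00196, limma). The promoters of Slc7a11 (chr3:50443564-50443863, minus strand) and Pycr1 (chr11:120643699-120643998, minus strand) are set side by side because both hold the C/EBP-ATF letters TGATGNAA, read by ATF4, while their levels moved in opposite directions. Over the 31 genes of the amino acid list, 7 (22.6%) were lower and 1, Pycr1, was higher. The list's median log2 fold change was -0.66, against -0.22 over all genes. Values with Sal-B lay below both LPS libraries in 28 of the 31 and above both in 2, against 58.1% and 24.9% of all genes. The list summed to 1411 and 730 FPKM in control, 976 and 966 with LPS and 542 and 592 with Sal-B, so that the controls differed widely. At the same median and after the correction 4 were lower and 1 higher. The letters, searched on both strands, occur in 2.19% of all promoters of genes tested. Promoters were found for 77.4% of the list, so that a share over the whole list is not given. Of the 8 members found to hold the letters, 5 were lower and Pycr1 alone was higher as deposited. Of the 16 found without them, 2 were lower and 0 higher. At the same median 3 of the 8 and 1 of the 16 were lower. The difference was not tested. Slc7a11 holds the letters once on each strand and Pycr1 once on the gene's strand, in capitals (RefSeq, GRCm38.p6):
Slc7a11: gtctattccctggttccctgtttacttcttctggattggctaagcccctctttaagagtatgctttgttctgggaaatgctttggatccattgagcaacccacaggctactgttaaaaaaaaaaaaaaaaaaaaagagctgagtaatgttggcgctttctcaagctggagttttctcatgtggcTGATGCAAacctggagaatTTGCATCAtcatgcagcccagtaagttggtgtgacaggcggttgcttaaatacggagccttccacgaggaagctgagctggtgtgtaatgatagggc
Pycr1: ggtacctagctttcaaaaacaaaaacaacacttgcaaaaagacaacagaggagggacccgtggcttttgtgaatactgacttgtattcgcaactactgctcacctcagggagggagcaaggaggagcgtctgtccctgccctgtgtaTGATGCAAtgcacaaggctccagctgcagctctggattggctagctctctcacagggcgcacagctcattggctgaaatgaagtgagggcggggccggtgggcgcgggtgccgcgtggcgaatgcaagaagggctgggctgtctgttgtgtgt

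Of the genes LPS had lowered, those of mitosis leaned towards higher values with Sal-B. Of 42 genes of mitosis and cytokinesis 41 were LPS-lowered, and over the list 14 were higher and 5 lower as deposited, 22 and 0 at the same median and 25 and 0 after the correction. With 1 library left out 6 to 21 were higher and 0 to 7 lower. The list's median log2 change with LPS against control was -1.60. Kif20b, a kinesin of cytokinesis, was at 26.6 and 22.2 FPKM in control, 6.73 and 5.88 with LPS and 23.8 and 24.9 with Sal-B (1.80 ± 0.12 SE, adjusted p = 0.0015, limma). Cenpe, the kinetochore motor, was at 17.8 and 16.6, 7.80 and 8.12, and 21.5 and 21.8 FPKM (1.34 ± 0.09 SE). For both, the libraries with Sal-B lay near or above control. Genes of DNA replication summed to 836 and 455 FPKM in control, 359 and 351 with LPS and 276 and 273 with Sal-B, so that the controls differed widely. The median log2 fold change of these genes with Sal-B was -0.17, against -0.22 over all genes. Of 43 genes of DNA replication 3 were higher and 2 lower, then 3 and 1, then 2 and 1, both below the shares over all genes, and 0 to 19 were lower with 1 library left out. Pcna was at 72.9 and 72.3 FPKM with LPS and 34.9 and 31.9 with Sal-B, a call lost with any 1 treated library left out (highest adjusted p = 0.131, limma).

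The 6 LPS-lowered genes named for the largest rises were Zc3h11a, Mef2c, Krcc1, Smc2, Hist1h2ao and Selenbp1. Mef2c, a MADS-box transcription factor, was at 3.38 and 5.31 FPKM in control, 2.87 and 2.83 with LPS and 21.05 and 20.4 with Sal-B. Smc2, a condensin core subunit, was at 35.5 and 26.6, 15.2 and 14.7, and 58.4 and 60.3 FPKM. Selenbp1 was at 38.8 and 67.8, 3.99 and 4.22, and 17.6 and 17.4 FPKM, so that it rose only part of the way to control. Hist1h2ao belongs to a family of near-identical histone genes and lost its call when either LPS or either Sal-B library was left out (highest adjusted p = 0.0612, limma).

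Zc3h11a and Gm38394 are annotated over the same exons and moved in opposite directions. Zc3h11a was at 2.84 and 2.44 FPKM with LPS and 39.3 and 39.4 with Sal-B, and Gm38394 at 19.5 and 20.7 and at 0.171 and 0.183 FPKM. Summed with Zbed6, which lies in the same locus, the level was 16.2 and 37.9 FPKM in control, 29.6 and 24.0 with LPS and 47.8 and 42.0 with Sal-B. The change of the locus as a whole was thus smaller than that of either model. Over all genes tested, 323 share exon bases with another gene of the table on the same strand, and without them 1010 genes were higher and 3106 lower.

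The LPS-lowered genes named for the largest falls were Xbp1, Cpne1, Adam10, Cst7, Plau and 1810011H11Rik. Adam10, a membrane sheddase, was at 79.0 and 89.3 FPKM in control, 15.9 and 16.6 with LPS and 2.45 and 2.85 with Sal-B (log2 fold change -2.24 ± 0.11 SE, adjusted p = 0.000971, limma). Cst7, cystatin F, an inhibitor of lysosomal proteases, was at 142 and 83.0, 35.2 and 34.3, and 7.20 and 6.38 FPKM. Plau, urokinase, was at 126 and 86.4, 61.9 and 61.4, and 17.1 and 17.0 FPKM. Cpne1 shares exons with Rbm12, which was listed at 0 in both Sal-B libraries, and with Gm28036. Fc and phagocytic receptors were lower in 16 of 29 cases and higher in 1, with 13 and 2 both at the same median and after the correction, and 6 to 22 were lower with 1 library left out.

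Of 31 genes of the unfolded protein response, 15 were lower and 4 higher, then 13 and 5 at the same median and 11 and 4 after the correction, and 5 to 22 were lower with 1 library left out. Beside Xbp1 and Dnajb9, which fell, the endoplasmic reticulum chaperone Hsp90b1 rose from 234 and 228 FPKM with LPS to 413 and 413 with Sal-B (0.83 ± 0.09 SE, adjusted p = 0.0028, limma), and LPS had not moved it. Its cytosolic relative Hsp90ab1 rose from 568 and 580 to 841 and 839 FPKM (0.55 ± 0.08 SE), a call lost without LPS replicate 2, Sal-B replicate 2 or Sal-B replicate 3 (highest adjusted p = 0.062, limma). Over the cytosolic chaperones 4 of 26 were higher and 12 lower, but 4 and 8 at the same median and 5 and 5 after the correction, and 2 to 14 were lower with 1 library left out. Hspa4 was at 59.6 and 58.4 FPKM with LPS and 36.6 and 37.3 with Sal-B.

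**Figure D4:**
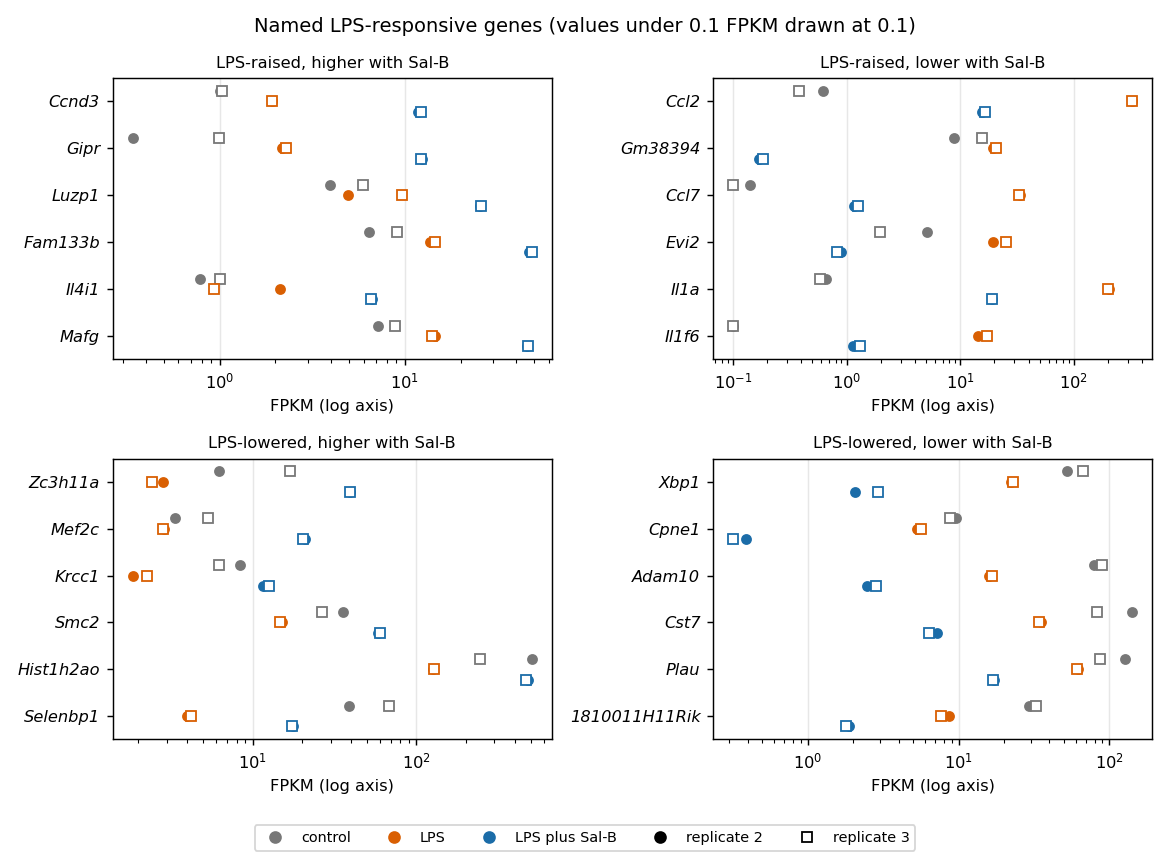
FPKM (log axis) in each library for the LPS-raised and LPS-lowered genes with the largest rise or fall with Sal-B under the naming rule, 6 genes a panel. In the upper right panel the LPS plus Sal-B points of Ccl2 lie between control and LPS, and in the lower right panel those of all 6 genes lie below both, as their class and their call require.

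The direction of the calls moved with the length and base composition of the transcripts, over the 9959 genes tested with an annotated transcript. Genes called higher had a median transcript length of 3645 bases and a median GC content of 52.5%, and genes called lower 2752 bases and 47.5%. In the quintile of genes with the lowest GC content, 10.0% were higher and 45.1% lower, while in the quintile with the highest GC content 18.1% were higher and 14.1% lower. In the quintile with the shortest transcripts, 7.38% were higher and 40.1% lower, and in the quintile with the longest 16.0% and 25.4%. The same order of the end quintiles held at the same median. The nuclear respiratory chain list had a median length of 870 bases and the chromatin list one of 5921 bases.

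With each library's trend against GC content and length taken off, 1401 genes were higher and 1669 lower. Of these, 887 and 1582 were called in the same direction as deposited. The log2 fold change of Atr was then 2.10 and that of Mob1a -2.28, and all 48 genes named by class kept their calls. The part of GC content and length in the calls that were lost was not tested beyond this correction.

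**Figure D5:**
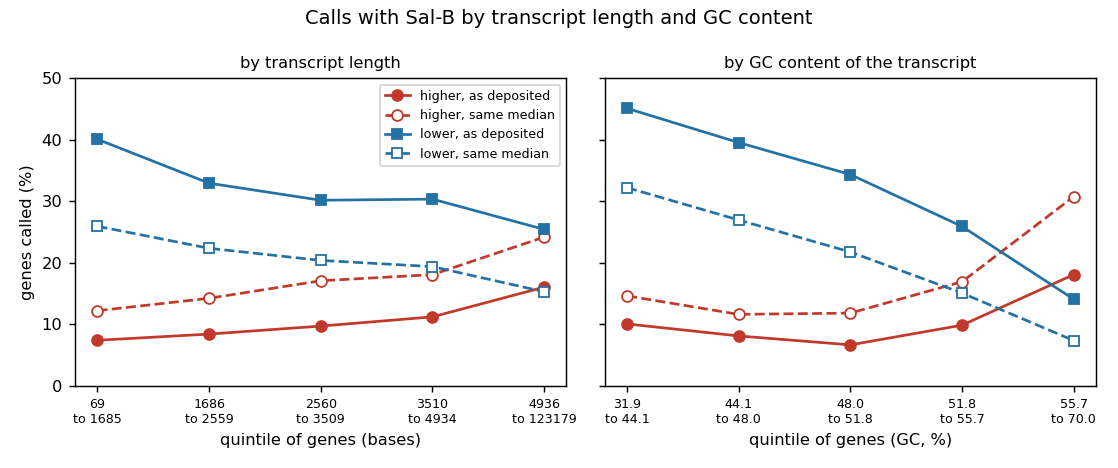
Percentage of genes called higher (circles) or lower (squares) with LPS plus Sal-B against LPS (y axis) by quintile of transcript length in bases (left) and of GC content in percent (right), as deposited (filled) and at the same median (open). Lower calls decline from 45.1% in the lowest to 14.1% in the highest GC quintile as deposited.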

How the data were processed

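The data are 6 RNA-seq libraries of RAW264.7 cells (control, LPS, LPS plus Sal-B, 2 each). Per the labels' protocols, RNA was taken with Trizol and kits named TruSeq and KAPA Stranded were used, after poly(A) capture or removal of rRNA. The submitters' processing notes name cutadapt, HISAT2 2.0.5, StringTie and the build GRCm38, and whether counting used strand is not given in the sources used here. The FPKM values per gene were deposited by the authors and are used as deposited or multiplied by a factor that gives each library the same median over 8050 genes.

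Genes that reached 1 FPKM in 2 libraries entered the test, made on log2(FPKM + 1) with limma 3.58.1 (R 4.3.3, trend, 3 groups over 6 libraries, no block, two-sided), adjusted over 10014 genes, and called at an adjusted p under 0.05. A pseudocount of 1 understates the change of low genes. Genes named by class were called on both scales in 1 direction, had no overlap between the groups and reached a group mean of 5 FPKM. They are the 12 largest rises and falls among LPS-unmoved genes (outside both controls) and 6 among LPS-raised and LPS-lowered genes. For each list, the 2 called members with the smallest p as deposited were named in each direction, with no limit on level or scale. Members and the 39 gene lists were chosen with earlier results of these data known. Results for 1 list and for some genes are not reported here. Promoters (RefSeq) matched 80.7% of genes tested. Transcript length and GC content come from the GENCODE annotation of the same build. Alternatives were other scalings, filters, pseudocounts, limits and fits, and each library left out.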

Additional observations from a re-analysis of the deposited data

How the results depend on the processing

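Counts are given as higher and lower genes, for all genes tested and then for LPS-unmoved, LPS-raised and LPS-lowered genes, with 1054 and 3184, 338 and 1006, 173 and 644, and 542 and 1534 as deposited. At the same median they were 1714 and 2068, 571 and 754, 565 and 762, and 577 and 552. With quantile normalization they were 1596 and 1631, 521 and 527, 257 and 369, and 817 and 735. With only the 4 treated libraries they were 1696 and 4552, 518 and 1387, 268 and 937, and 909 and 2228, and at the same median as well (an alternative chosen after seeing the data) 2601 and 3233, 848 and 1141, 845 and 1191, and 907 and 901. A minimum fold of 1.2 gave 522 and 1584, 205 and 522, 86 and 371, and 230 and 691. The GC and length correction, also chosen after seeing the data, gave 1401 and 1669, 420 and 544, 200 and 413, and 780 and 712.

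With the class taken from LPS replicate 2 alone and the contrast without it, the counts were 516 and 1350, 181 and 416, 102 and 299, and 232 and 635, and with LPS replicate 3 in that role 498 and 1476, 190 and 445, 84 and 290, and 223 and 741. Leaving out each library in turn gave 268 to 1691 and 775 to 4554, 103 to 526 and 257 to 1374, 49 to 299 and 203 to 1090, and 115 to 915 and 315 to 2342. Averaging each treated pair left 1 residual degree of freedom and 0 adjusted calls by limma in every class, with 376 higher and 1101 lower genes at an unadjusted p under 0.05. The cause of these shifts was not tested, apart from the fewer samples or degrees of freedom that some settings leave. The other pseudocount, filters, the trend and the overlapping genes left the counts within 1.5 times.

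The replicate differences of the groups were nearly uncorrelated over genes (0.0139, 0.00367 and 0.0348). Each group gives a single difference, so that this does not settle whether the numbers pair the samples. A replicate block gave 944 and 2878, 320 and 913, 150 and 604, and 473 and 1361. Unmoved limits of 1.2 and 1.5 gave 244 and 685, and 461 and 1491 LPS-unmoved genes. Of 171 genes named by the rule, none reversed under any alternative run. Calls were lost for 21 with the minimum fold, 12 with the GC and length correction, 7 with quantile normalization, 5 at the same median (Bub3, E2f3, Ect2, Pcna, Sc5d), 5 with the replicate block and 171 with averaged pairs. Leaving out Sal-B replicate 2 lost 51, Sal-B replicate 3 lost 45, LPS replicate 2 lost 30 and LPS replicate 3 lost 25, and leaving out either control library lost 0. FPKM holds no depth, so that counting error is unknown.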

Other observations

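Counts of calls for further lists stand against shares over all genes of 10.5% higher and 31.8% lower as deposited, 17.1% and 20.7% at the same median, and 14.1% and 16.8% after the correction for GC content and length. Of 35 MAP kinases and their phosphatases 18 were lower and 1 higher with Sal-B as deposited, 13 and 4 at the same median and 13 and 1 after the correction, and 7 to 22 were lower with 1 library left out. Dusp14, a phosphatase, was at 2.85 and 2.77 FPKM in control, 4.51 and 4.15 with LPS and 0.298 and 0.181 with Sal-B. Pik3cb, a catalytic subunit of PI3-kinase that LPS left unmoved, was at 9.08 and 8.79 FPKM with LPS and 1.93 and 1.82 with Sal-B (log2 fold change -1.79 ± 0.10 SE, adjusted p = 0.0011, limma), while over its pathway 3 of 31 genes were higher and 9 lower, close to the shares over all genes. Among 32 JAK-STAT and SOCS genes 5 were higher and 8 lower, also near those shares. Il13ra1, a receptor chain for interleukin 13, was at 10.5 and 11.2 FPKM with LPS and 4.28 and 4.20 with Sal-B.

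Rab GTPases, the switches of membrane traffic, were lower in 18 of 39 cases and higher in 2, then 13 and 3 at the same median and 10 and 3 after the correction, and 8 to 22 were lower with 1 library left out, with Rab8b at 43.8 and 43.6 FPKM with LPS and 19.5 and 19.7 with Sal-B. Of 35 autophagy genes 13 were lower and 3 higher, then 5 and 5 at the same median and 3 and 3 after the correction. Wipi1, a phosphoinositide-binding autophagy protein, was at 4.14 and 5.20 FPKM in control, 0.913 and 0.975 with LPS and 4.32 and 3.87 with Sal-B (1.39 ± 0.13 SE). Casp1, the inflammasome protease, was at 57.0 and 51.1 FPKM with LPS and 19.7 and 21.5 with Sal-B, and of 31 BCL2 family and caspase genes 9 were lower and 2 higher, near the shares over all genes.

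In the promoters of LPS-unmoved genes, the ETS letters CCGGAAGT on either strand were present in 14.8% of 277 genes lower on both scales, 11.8% of 136 genes higher on both scales and 9.85% of all genes tested. The NF-kB letters GGGNNTTCC were present in 6.14%, 10.3% and 7.71% of the same sets. Among LPS-unmoved genes not called as deposited, the shares were 11.5% for the ETS letters and 8.598% for the NF-kB letters. With the calls as deposited alone, lower and higher LPS-unmoved genes held the ETS letters in 11.9% and 10.3%, close to the genes not called. The NF-kB letters were then present in 6.28% and 9.66%. Both are among 12 sets of letters searched. Other letters were searched within gene lists too, and lower members with and without them were counted as deposited. They were 1 of 8 and 5 of 16 for NF-kB letters in the NF-kB list. Heat shock letters in cytosolic chaperones gave 2 of 8 and 9 of 13. CLEAR letters in lysosomal genes gave 2 of 5 and 20 of 32. NRF1 letters in the nuclear respiratory chain gave 7 of 9 and 37 of 52. YY1 letters in mitochondrial ribosomal protein genes gave 5 of 8 and 40 of 60. These shares and counts are descriptions of the letters and were not tested.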
